A study of Homo sapiens with 7 samples.

Results

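Distal RUNX2 binding sites that were found in both of 2 T-cell acute lymphoblastic leukemia (T-ALL) lines, with a midpoint outside acetylated chromatin in both, are described here. They were the 1876 RUNX2 peaks of KARPAS-45 on chromosomes 1 to 22 and X that overlapped a RUNX2 peak of PER-117 by 1 bp or more, whose midpoint lay over 1 kb from both ends of every protein-coding gene and outside every region called for acetylation of lysine 27 of histone H3 (H3K27ac) in either line. They made up 1876 of the 42911 RUNX2 intervals of KARPAS-45, of which 13387 were shared with PER-117 and 8560 were shared and distal. Of the distal shared peaks, 21.9% were therefore unacetylated (Wilson 95% interval 21.1 to 22.8), against 38.6% of all distal RUNX2 peaks and 31.1% of all RUNX2 peaks of KARPAS-45. The remaining distal shared peaks numbered 4783 with acetylation in both lines, 971 in KARPAS-45 only and 930 in PER-117 only. Acetylation was read at the midpoint in each class. Of the 1876 unacetylated sites, 1596 had their whole interval outside H3K27ac of both lines, and the others overlapped a called region away from the midpoint. The sites were chosen by measured values, the RUNX2 calls of both lines and the H3K27ac calls of both lines, and by gene distance, so their strength and distance to H3K27ac are given as descriptions with no test.

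The study mapped RUNX2 and H3K27ac by chromatin immunoprecipitation and sequencing (ChIP-seq) in KARPAS-45, a T-ALL line with a KMT2A rearrangement, and in PER-117, a second T-ALL line. Medium with fetal bovine serum was used at 20% for KARPAS-45 and at 10% for PER-117, and both were untreated as far as the labels say. Chromatin of both lines was crosslinked with 1.1% formaldehyde for 10 min and sheared to fragments of 200 to 300 bp. Each line and antibody has 1 library, so the 2 lines differ in culture, library and identity at once, no difference between them could be tested, and these cannot be told apart. The 3 inputs were not analysed here.

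RUNX2 is a Runt-domain transcription factor, best known for its part in bone formation, that binds DNA together with its partner CBFB at a short core sequence. RUNX proteins recruit acetyltransferases at some sites and, through corepressors of the Groucho/TLE family, histone deacetylases at others. H3K27ac is written by the acetyltransferases EP300 and CREBBP and marks active promoters and enhancers, so a factor-bound site outside it is one where that sign of activity was not called.

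Called H3K27ac spanned 167 Mb in 63265 regions of KARPAS-45, and 76.2 Mb in 53263 regions of PER-117. As a check of the cell type, H3K27ac lay at a gene end of 8 of 8 T-cell markers (KARPAS-45) and 7 of 8 (PER-117, where CD5 was the exception). It also lay at 0 of 5 and 1 of 5 myeloid markers and at 1 of 5 and 2 of 5 erythroid markers. The files give no reads or depth, so a site outside H3K27ac is one that was not called at an unknown depth. Intervals in the text are 95% intervals for counting error only, Wilson's for shares and order-statistic intervals for medians.

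Sequence could be read for the sites whose summit, the position of highest RUNX2 signal, fell in a promoter window of the RefSeq table for GRCh38.p14 (250 bases before to 50 after a transcript start). There were 18 such sites: 13 lay at starts of long non-coding RNAs and 5 at starts listed for protein-coding genes, over 1 kb from the ends of the gene's span. The windows below show what lies under the summit at sites with and without the RUNX core. Capitals mark the core searched, TGTGGT or TGCGGT on either strand, and each sequence is printed on the strand of its gene. The whole window is given for PCAT7, a long non-coding RNA first described in prostate cancer, whose site had the second highest KARPAS-45 fold of all members. For the others the stretch runs 50 bases to each side of the summit.
PCAT7 (chr9:94554349-94554648, plus strand): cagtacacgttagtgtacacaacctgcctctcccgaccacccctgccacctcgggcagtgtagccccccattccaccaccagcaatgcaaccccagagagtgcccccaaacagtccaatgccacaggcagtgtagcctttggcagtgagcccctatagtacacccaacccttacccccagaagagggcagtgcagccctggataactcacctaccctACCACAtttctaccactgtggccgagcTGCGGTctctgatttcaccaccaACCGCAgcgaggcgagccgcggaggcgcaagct
LOC107984405 (chr11:124718365-124718465, plus strand): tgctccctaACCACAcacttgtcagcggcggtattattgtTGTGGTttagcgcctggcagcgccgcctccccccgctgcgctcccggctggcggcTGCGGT
PDIA6 (chr2:10832459-10832559, minus strand): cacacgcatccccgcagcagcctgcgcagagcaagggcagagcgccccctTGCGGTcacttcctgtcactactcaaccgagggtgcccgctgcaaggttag
LOC107986764 (chr7:7271329-7271429, plus strand): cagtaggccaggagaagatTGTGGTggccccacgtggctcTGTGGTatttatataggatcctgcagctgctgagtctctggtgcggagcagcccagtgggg
KIF6 (chr6:39431378-39431478, minus strand): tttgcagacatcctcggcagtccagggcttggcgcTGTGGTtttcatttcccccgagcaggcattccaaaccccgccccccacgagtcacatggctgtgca
LOC107984326 (chr11:36702761-36702861, plus strand): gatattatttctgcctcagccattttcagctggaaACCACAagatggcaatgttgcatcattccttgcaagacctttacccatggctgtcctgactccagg
The next 4 windows held no core and are shown for contrast.
LOC124902439 (chr10:64041321-64041421, plus strand): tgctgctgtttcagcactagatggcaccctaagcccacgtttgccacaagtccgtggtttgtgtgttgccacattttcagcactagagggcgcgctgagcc
TJP3 (chr19:3721550-3721650, plus strand): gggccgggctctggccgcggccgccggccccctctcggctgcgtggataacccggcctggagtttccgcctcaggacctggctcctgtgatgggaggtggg
LINC00398 (chr13:30803056-30803156, plus strand): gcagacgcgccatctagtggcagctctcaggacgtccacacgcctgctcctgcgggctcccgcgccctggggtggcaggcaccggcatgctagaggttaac
LOC105379504 (chr21:7775929-7776029, plus strand): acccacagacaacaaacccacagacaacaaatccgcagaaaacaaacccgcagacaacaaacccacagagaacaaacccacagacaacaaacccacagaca

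At the PCAT7 site, 3 cores lay at -40.5, -13.5 and 9.5 bp from the summit, counted to the middle of the core and negative before the summit on the gene's strand. Its KARPAS-45 fold enrichment was 80.1 and its PER-117 fold enrichment 30.8; where a pair of folds is given below, KARPAS-45 comes first unless stated. The LOC107984405 site also held 3 cores, at -38.5, -7.5 and 47.5 bp, with folds of 37.2 and 5.496. Of the 4 other sites printed with a core, PDIA6, a protein disulfide isomerase, had the higher folds, 18.1 and 10.5, and the core printed lay 2.5 bp from the summit. The windows of KIF6, a kinesin motor, and LOC107984326 had single cores at -12.5 bp, with folds of 6.51 and 4.69 at KIF6 and 5.77 and 5.00 at LOC107984326. The printed stretch of LOC105379504, with folds of 20.2 and 10.3, is a run of near copies of a short unit.

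A core was found in 8 of the 18 windows (44.4%, 24.6 to 66.3), each time within 50 bp of the summit, against 19.6% of all 35116 promoter windows of the same length. At distal shared sites acetylated in both lines, 167 of 372 windows (44.9%, 39.9 to 49.97) held a core, 129 of them (34.7%) within 50 bp of the summit. For distal unacetylated peaks of KARPAS-45 only, the count was 37 of 60 (61.7%, 49.0 to 72.9). At sites acetylated in 1 line it was 25 of 35 (71.4%, 54.9 to 83.7), made up of 10 of 11 where that line was PER-117 and 15 of 24 where it was KARPAS-45. A match is a description of the letters, and windows without one say nothing about binding. At PDIA6 and LOC107984326 the core near the summit shares letters with a second pattern, described in the closing section. The 18 windows are 18 of 1876 sites, and the sequences of the others were not analysed here.

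Unacetylated sites ranked somewhat higher than distal shared peaks as a whole in the KARPAS-45 list and somewhat lower in the PER-117 list. Fold enrichment is the authors' value for a peak, and it ranks peaks within 1 list only. The background it was taken against is not given in the sources used here. The 1876 sites had a median fold of 10.8 in the KARPAS-45 list (10.4 to 11.4). Their median in the PER-117 list was 6.25 (6.07 to 6.44). Within the KARPAS-45 list this is the 77.2 percentile (75.6 to 79.2), and within the PER-117 list the 56.9 percentile (55.0 to 59.5). The lists hold 42911 and 21027 intervals, so the percentiles of the lines are not on 1 scale and do not compare binding strength between them. All distal shared peaks, the sites included, had medians of 73.6 and 61.9. The sites spanned nearly the whole of both lists, with KARPAS-45 folds from 1.34 to 82.9 and PER-117 folds from 1.31 to 48.9.

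The order of the acetylation classes differed between the lists. By KARPAS-45 fold, the median percentile was 81.1 at distal shared peaks acetylated in KARPAS-45 only, 77.2 at unacetylated peaks, 72.5 at peaks acetylated in both lines and 62.3 at peaks acetylated in PER-117 only. In the PER-117 list the order ran the other way at the ends: 69.4 for peaks acetylated in PER-117 only, 64.1 for both lines, 56.9 for unacetylated peaks and 49.4 for KARPAS-45 only. The unacetylated peaks thus ranked above the doubly acetylated ones in KARPAS-45 and below them in PER-117. When both RUNX2 lists were limited to a −log10 q of at least 10, the medians were 80.98 and 71.5 in KARPAS-45. In PER-117 they were 57.1 (54.9 to 61.2) and 59.6, which are close, and the difference was not tested. Unacetylated distal peaks called in KARPAS-45 alone, 10793 of them, had a median percentile of 42.3 there.

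**Figure D1:**
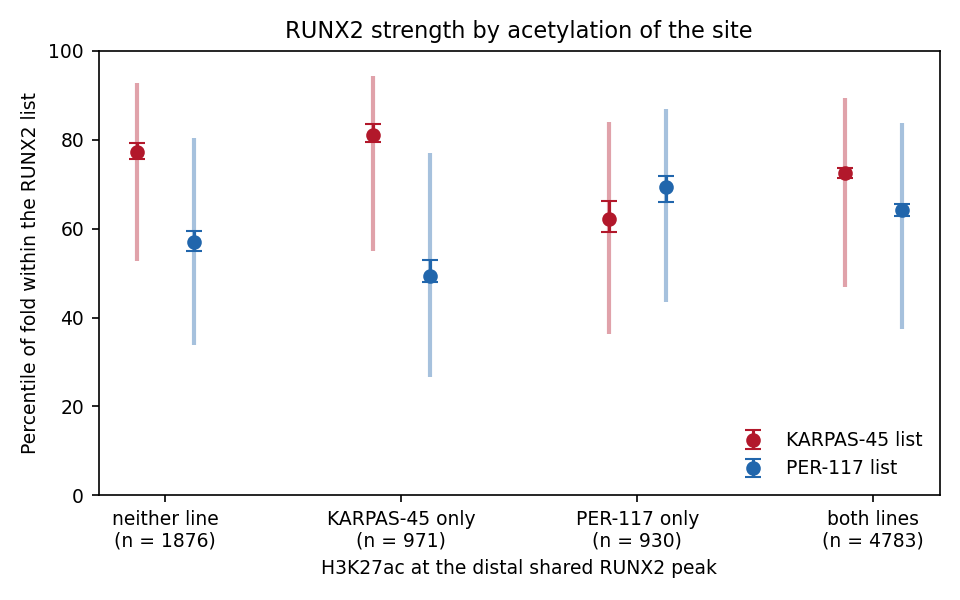
Percentile of RUNX2 fold enrichment within each line's own list for distal shared peaks, by the lines in which the site was acetylated; points are medians with 95% intervals and pale lines span the middle 50% of peaks. Unacetylated peaks have a median of 77.2 in the KARPAS-45 list and 56.9 in the PER-117 list, and the middle 50% of all classes overlap.

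The share of distal shared peaks without H3K27ac differed along the KARPAS-45 ranking. It was 15.5% (13.3 to 18.1) in the weakest decile of KARPAS-45 folds, from 19.0% to 22.9% in deciles 2 to 8, 26.8% (23.9 to 29.8) in decile 9 and 27.8% (24.9 to 30.9) in the strongest, beside 21.9% of all. Of the 10 strongest distal shared peaks of KARPAS-45, 5 were unacetylated, and of the 100 strongest 39 were (30.0 to 48.8%). Along the PER-117 ranking the share peaked low in the list, at 26.9% (24.0 to 29.9) in decile 3, and was 19.6% (17.1 to 22.4) in the strongest. Of the 10 strongest PER-117 peaks 4 were unacetylated, and of the 100 strongest 25 were (17.5 to 34.3%), which spans the 21.9% of all. Seen the other way, 570 of the 1876 sites (30.4%) had a KARPAS-45 fold in the top 10% of its list, against 25.7% of all distal shared peaks. In PER-117 245 sites (13.1%) did, against 15.3%, and 165 sites (8.80%) were in the top 10% of both lists, against 8.84% of all distal shared peaks. Across the 1876 sites the folds of the lines had a Spearman rho of 0.449, which describes sites from the same 2 libraries.

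**Figure D2:**
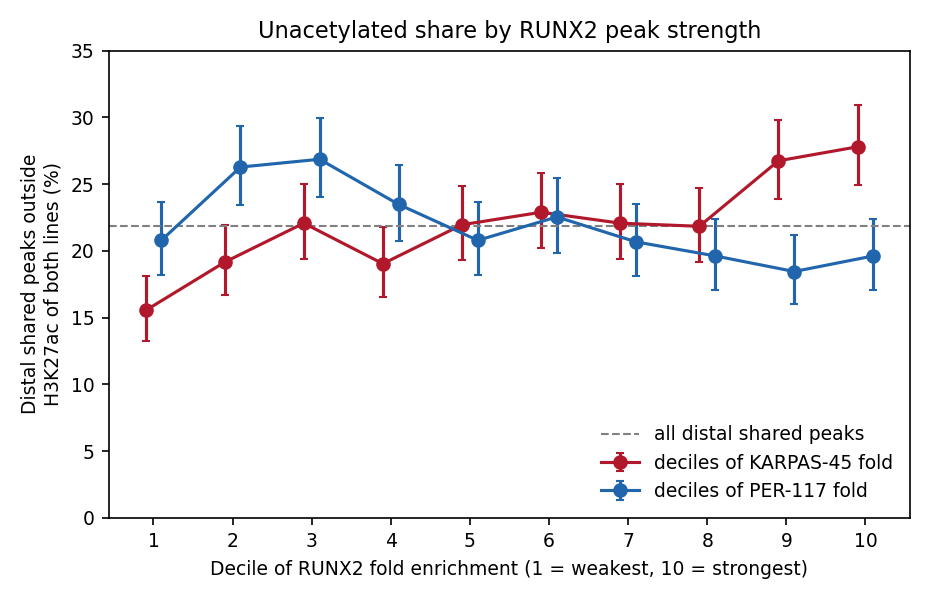
Percent of distal shared RUNX2 peaks outside H3K27ac of both lines, by decile of fold enrichment in KARPAS-45 (red) and in PER-117 (blue), with Wilson 95% intervals; the dashed line is the 21.9% of all 8560 peaks. The red points run from 15.5% to 27.8%, while the blue points are highest in deciles 2 and 3.

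The median width of the peaks in KARPAS-45 was 319 bp, between 376 bp at sites acetylated in both lines and 284 bp at those acetylated in PER-117 only. It was 285 bp over all KARPAS-45 RUNX2 intervals and 235 bp at unacetylated distal peaks of KARPAS-45 only. Several summits were called in 2.77% of the sites, against 11.6% at sites acetylated in both lines, 2.69% at those acetylated in PER-117 only and 0.732% at unacetylated distal peaks of KARPAS-45 only. The strongest summits of both lines lay within 50 bp of each other at 81.4% of the sites (79.6 to 83.1), with a median distance of 22 bp. At sites acetylated in both lines the share was 69.1% (67.7 to 70.4) and the median 29 bp. Sites acetylated in 1 line were nearer to the unacetylated ones. The share was 77.0% (74.3 to 79.6) for KARPAS-45 only and 78.5% (75.7 to 81.0) for PER-117 only, with medians of 24 and 23 bp. Wider peaks leave more room for distant summits, and peaks were not matched on width.

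The strongest unacetylated site in both lines lay 2.34 kb from an end of ZNF541, a zinc finger protein of germ cells (chr19:47518018-47518678). Its KARPAS-45 fold was 82.9 and its PER-117 fold 48.9. H3K27ac was called 138 bp from its midpoint in the first line and 1.71 kb from it in the second. The region of the first line thus reached into the 661 bp peak. Distances to H3K27ac are taken from the midpoint, so a region closer than the peak's edge overlaps the peak. The site at PCAT7, 4.04 kb from FBP2, the muscle form of the gluconeogenic enzyme fructose-bisphosphatase, had KARPAS-45 H3K27ac no nearer than 84.9 kb and PER-117 H3K27ac no nearer than 114 kb. Sites of near-equal KARPAS-45 fold thus lay partly in and far from called H3K27ac.

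IGF2R, which takes up insulin-like growth factor II for breakdown, held a site with folds of 79.6 and 25.01. One inside ZBP1, an innate sensor of left-handed nucleic acid, had 72.6 and 10.998, with H3K27ac of KARPAS-45 664 bp away. The site near NKAP, a nuclear protein needed in T-cell development, had 64.9 and 13.1. Inside IL20RA, a subunit of the interleukin-20 receptor, the folds were 64.6 and 33.4, and the nearest H3K27ac was 185 kb off by the KARPAS-45 list and 121 kb by the PER-117 list. Sites near TMCC2, near SLC13A5 (a citrate transporter), near ERMARD and inside CDCP1 (a transmembrane glycoprotein) had KARPAS-45 folds from 63.1 to 64.6. Their PER-117 folds ran from 8.32 at ERMARD to 20.4 at TMCC2. H3K27ac of KARPAS-45 began 24 bp from the midpoint of the TMCC2 site, inside the 528 bp peak. All of the 10 strongest KARPAS-45 sites outside chromosome 8 had a lower fold in the PER-117 list, whose scale is its own. The highest fold of any distal shared peak there was 63.7, against 93.9 in KARPAS-45.

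In PER-117, ZNF541 was followed by OTUD5, a deubiquitinase, whose intragenic site had a PER-117 fold of 45.8 and a KARPAS-45 fold of 43.2. H3K27ac of PER-117 began 198 bp from the midpoint of the OTUD5 site, inside the 489 bp peak. In this paragraph the PER-117 fold comes first. The site inside DESI1, a SUMO protease, had 45.3 and 21.3. The site inside PLCE1, a phospholipase C, lay 15.2 kb from an end of NOC3L and had 45.1 and 55.9. TOX2, an HMG-box factor of lymphocytes, held a site with 39.3 and 38.6, with KARPAS-45 H3K27ac 4.21 kb away and PER-117 H3K27ac 69.9 kb away. The site inside MARCHF1, a ubiquitin ligase that removes MHC class II from the surface, had 38.9 and 13.0. These are the 99.9 percentile of the PER-117 list and the 83.5 percentile of the KARPAS-45 list. H3K27ac of PER-117 began 138 bp from its midpoint, inside the 363 bp peak, while that of KARPAS-45 was 63.4 kb away. COL4A2, a basement membrane collagen, and SYTL2, a vesicle protein, had PER-117 folds of 38.8 and 37.8 and KARPAS-45 folds of 20.4 and 25.7.

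With chromosome 8 left out, the best ranked sites in both lists together were those at ZNF541, PLCE1, TRAP1, TSPAN16, IL20RA, IER5, CFDP1, PCAT7, GRK5 and FBXW8. TRAP1, a mitochondrial chaperone of the HSP90 family, held a site with 59.5 and 37.4. The site near TSPAN16, a tetraspanin, had 56.7 and 36.1. H3K27ac of KARPAS-45 began 45 bp from its midpoint, inside the 557 bp peak, and that of PER-117 was 36.9 kb away. Near IER5, an immediate early gene, and near CFDP1 the KARPAS-45 folds were 46.5 and 53.6, and the PER-117 folds 31.4 and 30.9. There the nearer H3K27ac was that of PER-117, at 174 and 116 bp from the midpoint, and it reached into the peaks of 636 and 589 bp. Inside GRK5, a kinase of G protein-coupled receptors, and FBXW8, an F-box protein, the KARPAS-45 folds were 62.5 and 48.9 and the PER-117 folds 29.9 and 29.4, with H3K27ac from 6.84 to 13.2 kb away in both lines.

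**Figure D3:**
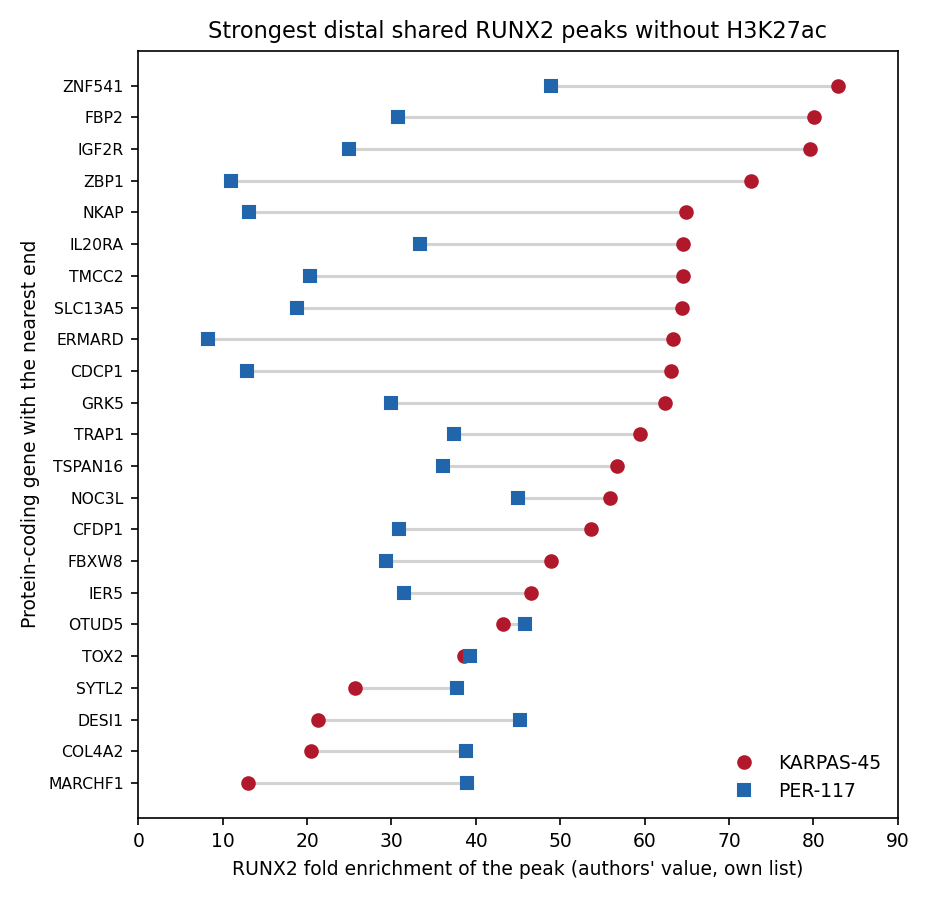
RUNX2 fold enrichment in KARPAS-45 (circles) and PER-117 (squares) of 23 distal shared sites without H3K27ac, named by the nearest protein-coding gene end. They were among the 10 strongest of either line or the 10 best ranked in both, with chromosome 8 left out before ranking. Circles run from 13.0 to 82.9 and squares from 8.32 to 48.9, each on the scale of its own list.

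Many of the sites had a midpoint near called H3K27ac but outside it, and some lay far away. The median distance to the nearest H3K27ac of either line was 7.07 kb (5.95 to 7.73). Taken by list, it was 14.9 kb to KARPAS-45 H3K27ac and 15.4 kb to PER-117 H3K27ac. Within 500 bp of H3K27ac lay 487 sites (26.0%, 24.0 to 28.0), 253 by the KARPAS-45 list, 322 by the PER-117 list and 88 by both. Of the 10793 unacetylated distal peaks of KARPAS-45 only, 15.6% lay that near. The difference lay on the PER-117 side: 17.2% against 3.19% lay within 500 bp of PER-117 H3K27ac, and 13.5% against 13.7% within 500 bp of KARPAS-45 H3K27ac. By the rule the sites had a PER-117 RUNX2 peak and the peaks of KARPAS-45 only had none, so this difference cannot be told apart from that choice. Beyond 100 kb lay 156 sites (8.32%).

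**Figure D4:**
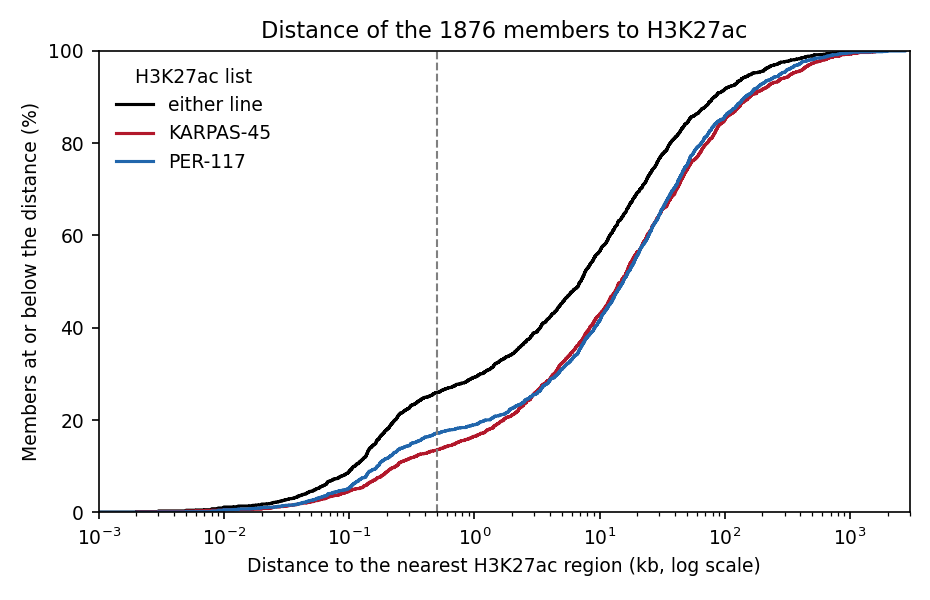
Cumulative percent of the 1876 sites by distance of the peak midpoint to the nearest H3K27ac region (kb, log scale) of either line (black), KARPAS-45 (red) or PER-117 (blue); the dashed line is at 500 bp. At 500 bp the curves stand at 26.0%, 13.5% and 17.2%, and their medians are 7.07, 14.9 and 15.4 kb.

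A small number sat in a gap within acetylated chromatin. With H3K27ac called within 1 kb on both sides, the site counted as flanked: 17 sites were flanked in KARPAS-45, 59 in PER-117, 2 in both and 74 in at least 1 line. The flanking regions were a median of 965 bp apart in the KARPAS-45 list (lowest 833, highest 1824 bp) and 445 bp apart in the PER-117 list (302 to 1198 bp). Regions of the PER-117 list were narrower, with a median width of 816 bp against 1270 bp.

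Strength varied with that distance in KARPAS-45. Sites within 500 bp of H3K27ac had a median KARPAS-45 percentile of 74.0, those from 0.5 to 5 kb 73.9, those from 5 to 20 kb 80.4, those from 20 to 100 kb 83.2 and those beyond 100 kb 76.0. In PER-117 the medians were 61.8, 52.8, 54.1, 59.0 and 59.3 in the same order. Inside a protein-coding gene lay 57.3% of the sites within 500 bp of H3K27ac, 58.3% of those from 0.5 to 5 kb and 42.9% of those from 20 to 100 kb.

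Among sites outside chromosome 8, those nearest to H3K27ac by the midpoint were 1 to 3 bp outside a region. They were near SLC37A1, inside NEURL1, near DCHS1, inside LEMD3 and near MGAT5B. In all 5 the near region was called in 1 line, and the other line's nearest region lay between 287 bp (SLC37A1) and 47.5 kb (MGAT5B) away. At the other end, the site farthest away lay 1941 kb from H3K27ac and 1031 kb from an end of FAM133A on chromosome X, with folds of 7.32 and 13.5. Outside chromosome 8 it was followed by sites inside CNTNAP2, a neuronal adhesion protein (folds 9.72 and 5.39), inside LRRTM4, a synaptic organiser (4.86 and 4.38), and near BRINP1 (7.61 and 4.69). The site 860 kb from FAM181B was the strong one among these, with 28.1 and 11.9. At these 5 sites the nearest H3K27ac of either line lay from 918 to 1941 kb away.

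Relative to genes, 51.1% of the sites lay inside a protein-coding gene (48.9 to 53.4), 13.2% inside another annotated gene only and 35.7% outside (33.5 to 37.9). Distal shared sites acetylated in both lines lay inside protein-coding genes more often, at 61.9% (60.5 to 63.3), and the unacetylated distal peaks of KARPAS-45 only at 50.3%. Shared sites acetylated in PER-117 only were close to the unacetylated ones, at 51.6% (48.4 to 54.8). With acetylation in KARPAS-45 only the share was 59.7% (56.6 to 62.8). The share for all distal shared peaks was 58.2%. The median distance to a protein-coding gene end was 23.04 kb (21.0 to 25.1), against 15.3 kb for sites acetylated in both lines and 31.9 kb for peaks of KARPAS-45 only. For shared sites it was 28.7 kb with acetylation in PER-117 only and 14.7 kb with acetylation in KARPAS-45 only. By distance 15.5% of the unacetylated shared sites lay within 5 kb of a gene end, 31.2% at 5 to 20 kb, 37.5% at 20 to 100 kb and 15.8% beyond. Exons and introns were not resolved, since the gene table gives spans only.

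**Figure D5:**
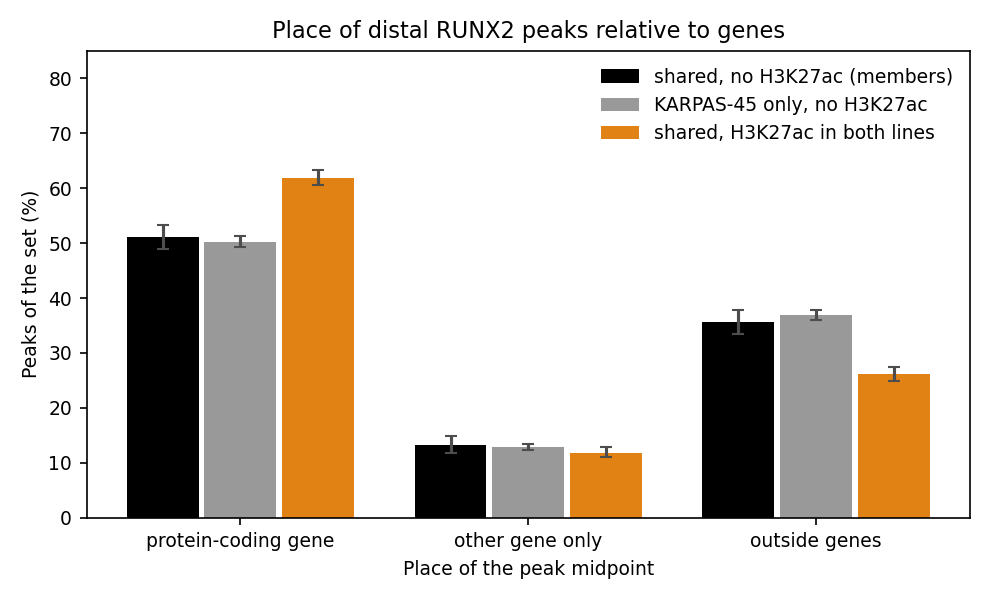
Percent of distal RUNX2 peaks with the midpoint inside a protein-coding gene, inside another annotated gene only, or outside annotated genes, with Wilson 95% intervals, for the 1876 shared unacetylated sites (black), 10793 unacetylated peaks of KARPAS-45 only (grey) and 4783 shared sites acetylated in both lines (orange). The black and grey bars differ by less than their intervals, and the orange bar is higher inside protein-coding genes (61.9% against 51.1%).

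Near the 1 kb limit and outside chromosome 8, the closest sites kept lay 1008 bp from ZNF778 (folds 8.02 and 2.93), 1011 bp from INSRR (6.59 and 6.44) and 1011 bp from KLK11 (5.93 and 5.36). H3K27ac of KARPAS-45 began 92 bp from the midpoint of the ZNF778 site, inside the 306 bp peak. Just inside the limit, and so left out, were peaks 994 bp from PCDH1 (33.5 and 8.67), 993 bp from EFNB2 (4.32 and 3.52) and 990 bp from CFAP276 (6.81 and 9.24). Within 1 kb of an end of a gene that is not protein-coding lay 141 sites (7.52%, 6.41 to 8.80), against 11.1% (10.4 to 11.8) of all distal shared peaks. These include 90 at long non-coding RNAs, 29 at pseudogenes and 6 at microRNA genes.

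The share of distal shared peaks without H3K27ac ran from 14.4% on chromosome 17 (11.7 to 17.7), 16.3% on chromosome 19 (13.1 to 20.2) and 16.6% on chromosome 16 (13.2 to 20.7) to 28.2% on chromosome 13 (23.1 to 34.1) and 28.4% on chromosome 8 (23.6 to 33.9). The other chromosomes lay between 18.2% (X) and 26.2% (chromosome 4).

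Among protein-coding genes, 859 of 19974 (4.3%) held a site inside their span: 754 held 1, 91 held 2, 12 held 3, 1 held 4 and 1 held 5. These genes were long, with a median span of 116.8 kb against 24.2 kb for all protein-coding genes. The gene with 5 was MAG, a myelin glycoprotein, at 21.6 kb the shortest of the genes with 3 or more, with KARPAS-45 folds from 4.40 to 11.6 and PER-117 folds from 3.30 to 6.56. Its 5 KARPAS-45 peaks met 3 PER-117 peaks, so they are not separate in both lines, and MAG held 0 acetylated distal shared peaks. AUTS2, a chromatin regulator of neurons that spans 1195 kb, held 4 sites, with KARPAS-45 folds from 6.54 to 23.8.

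Of the genes with 3 sites, SPNS2 exports sphingosine-1-phosphate, the lipid that guides lymphocytes out of tissues. Its sites had KARPAS-45 folds from 5.20 to 29.6 and PER-117 folds from 3.92 to 6.10. NECTIN1, a cell adhesion molecule, held sites with KARPAS-45 folds up to 40.7, CAMK2D, a calcium-dependent kinase, up to 35.2, and ITGA9, an integrin subunit, up to 23.2. RAP1GAP2, which switches off the small GTPase RAP1, had up to 28.2, KLHL29 up to 20.8 and TCF20 up to 6.32. The 3 sites of TCF20 met 2 PER-117 peaks, so they are not separate in both lines. COL4A2 had the strong PER-117 site of 38.8, beside 2 weaker ones, and no acetylated distal shared peak. The other genes here held between 1 (SPNS2, NECTIN1, CAMK2D, KLHL29 and ITGA9) and 6 (TCF20) acetylated distal shared peaks. Unacetylated and acetylated sites thus lay within the same gene spans, and the distances between them were not measured.

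Counting genes that held a site or had the nearest end to one, 1729 of 19974 protein-coding genes (8.66%) were reached. Of 140 genes in 8 lists of leukemia, T-cell, bone and neuronal genes, 22 were (15.7%), and the listed genes had a median span of 41.6 kb against 24.2 kb. Genes holding a site were longer than others, as given above, and the lists were not matched on span. All of the 4 genes of the RUNX family and its partner were reached, in a list with a median span of 147 kb. RUNX3, a T-cell differentiation factor, held a site (chr1:24925121-24925552) with folds of 27.9 and 16.9, 3.39 kb from KARPAS-45 H3K27ac and 1.34 kb from PER-117 H3K27ac. CBFB, the partner subunit, held one (chr16:67052790-67053167) with 17.0 and 9.10. RUNX1, a regulator of blood stem cells, held a weak one with 4.40 and 4.63, 0.145 kb from H3K27ac of KARPAS-45. RUNX2 itself had the nearest end, 115 kb away, to one with 5.23 and 5.39. The midpoint of that site lay 0.123 kb from H3K27ac of KARPAS-45, which overlapped the peak.

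Of 30 T-lineage genes 2 were reached (6.67%), close to the 8.66% of all genes. One was BCL11B, the factor that commits cells to the T lineage, whose end lay 256 kb from a site with 8.02 and 8.89. Of 20 genes of immature and progenitor cells 5 were reached: MEF2C, HHEX, SPI1, ZEB2 and CD44. MEF2C, a factor high in immature T-ALL, was 161 kb from a site with 13.3 and 5.39, and ZEB2, a zinc finger repressor, 739 kb from one with 12.2 and 9.78. HHEX, a homeobox factor of progenitors, was 2.61 kb from a site with 6.66 and 5.91. SPI1, the myeloid factor PU.1, held a site with 5.80 and 3.41, and CD44, an adhesion receptor, was 61.0 kb from one with 3.49 and 12.5.

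Of 20 KMT2A-fusion target genes 6 were reached (30.0%), of which MEF2C, RUNX2 and ZEB2 are given above. BCL2, the inhibitor of apoptosis, held a site with 7.61 and 4.72. Its midpoint lay 0.083 kb from H3K27ac of PER-117, which overlapped the peak. The splicing regulator MBNL1 held one with 5.35 and 9.69, and CPEB2, an RNA-binding protein, was 95.5 kb from one with 6.005 and 5.06. The list had a median span of 163 kb, the longest but for the neuronal list.

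Of 18 migration and adhesion genes 3 were reached. ELMO1, which activates RAC in moving cells, held the strongest site of any listed gene in KARPAS-45, with 34.4 and 7.13. Its midpoint lay 0.035 kb from KARPAS-45 H3K27ac and 0.18 kb from PER-117 H3K27ac. Both regions overlapped the peak (chr7:37432296-37432960), so only its midpoint was outside H3K27ac. ARHGAP15, a RAC regulator, held one with 8.95 and 3.71, and CXCR4, the receptor that holds cells in bone marrow, was 305 kb from one with 8.26 and 8.08. Of 16 bone targets of RUNX2, VEGFA and COL1A2 were reached, at 21.0 and 120 kb from weak sites with KARPAS-45 folds of 5.27 and 4.80. The midpoint of the site near VEGFA lay 0.059 kb from KARPAS-45 H3K27ac, which overlapped the peak. Of 20 developmental factors of other tissues 0 were reached, genes with a median span of 4.60 kb. Of 18 neuronal adhesion and synapse genes 3 were: CNTNAP2, PTPRD and MACROD2, in a list with a median span of 1485 kb. The site nearest PTPRD, a receptor phosphatase, had 9.76 and 13.2, percentiles 73.1 and 89.96 of their lists. The one inside MACROD2 had 4.18 and 13.7, percentiles 16.3 and 90.9.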

How the data were processed

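RUNX2 and H3K27ac ChIP-seq peak lists of 2 cell lines were used, 1 library each. STAR 2.4.2a, MACS2 and hg38 appear in the submitters' processing notes, and how each was used is not given in the sources used here. Per the file layout, the authors deposited 10 narrowPeak columns: a display score, the fold enrichment as a linear ratio, the −log10 of p and of q, and for RUNX2 a summit. The lowest deposited −log10 q was 1.31 for RUNX2 and 0.431 for H3K27ac in KARPAS-45, and 1.30 and 1.01 in PER-117.

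RUNX2 rows with the same interval were joined, keeping the summit of highest fold. Overlap of 1 bp made a peak shared, and where several PER-117 peaks overlapped, the one of highest fold gave the PER-117 value. The 1876 sites overlapped 1868 PER-117 intervals. Gene spans and promoter windows came from RefSeq tables of GRCh38.p14. No genome was used, so the planned core search over all sites was not run and was replaced by the promoter windows. Percentiles are ranks of fold within a list. Computation used scipy 1.17.1, pandas 2.3.3, numpy 2.4.6 and matplotlib 3.10.9 under Python 3.11.15, and the interval code was tested on simulated data.

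The members, gene lists and rules were chosen with earlier results of these data known. Named were the sites of the 10 highest folds in each line, the 10 best ranked in both, the 5 farthest from and 5 nearest to H3K27ac, 3 on each side of the 1 kb limit, the 10 genes holding most sites (ties to the shorter gene, a choice made after the values were seen) and up to 4 genes per list by KARPAS-45 fold, with 2 more where a small count was completed. Chromosome 8 was left out before these sites and genes were ranked, so none of its sites or genes is named, however strong. One marker result is not reported here. The windows printed were chosen after they were read. With 1 library per line and antibody no test was run; alternatives are given in the closing section.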

Additional observations from a re-analysis of the deposited data

Results flagged for a closer look

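Outside chromosomes 1 to 22 and X, the KARPAS-45 RUNX2 list held 66 intervals on the mitochondrial genome and unplaced sequences. Of these 12 overlapped a PER-117 interval and 8 of the 12 lay outside H3K27ac of both lines. They stand here because these sequences enter none of the comparisons above, and no gene distance was taken for them.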

How the results depend on the processing

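Over 13 alternatives, 3 of them added after the data were seen, 66 of 85 values stayed within their counting interval (counts within 1.5 times) and 19 did not; the cause was not tested beyond what each setting changes by construction. With RUNX2 peaks of both lists at −log10 q of 10 or more there were 901 sites, 20.7% of distal shared peaks, at a median KARPAS-45 percentile of 80.98. With H3K27ac regions at −log10 q of 2 or more the percentage was 25.6 and the median distance to H3K27ac 9.48 kb. It was 23.4% with summits within 100 bp as the measure of sharing and 23.04% beyond 2.5 kb of gene ends. A margin of 500 bp around H3K27ac gave 16.2% and 14.1 kb. Requiring the whole interval outside H3K27ac gave 1596 sites, 18.6% and 10.2 kb. With H3K27ac of PER-117 only there were 2847 sites (33.3%), 54.1% inside protein-coding genes, 9.36 kb from H3K27ac. With that of KARPAS-45 only the percentage was 32.8, the median KARPAS-45 percentile 73.1, the median PER-117 percentile 61.9, and the distance 13.3 kb. In 10 of the 10 alternatives set up at the start, unacetylated sites ranked above doubly acetylated ones in KARPAS-45, below them in PER-117, and were less often inside protein-coding genes, though at −log10 q of 10 the PER-117 medians were only 57.1 against 59.6. No paired analysis was possible because each line and antibody had 1 library and no value came from a test. Depth was not analysed here, so a missing H3K27ac call may lie under an unknown limit.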

Other observations

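In the promoter windows, a second pattern was seen beside the RUNX core and counted after it was noticed: CC, any 3 bases, AG, any 2 bases and GGC, on either strand, which are letters of the core bound by CTCF, the factor of insulators and chromatin loops. It lay in 6 of the 18 windows of unacetylated shared sites (33.3%, 16.3 to 56.3), against 59 of 372 (15.9%, 12.5 to 19.9) where the site was acetylated in both lines and 10.6% of all promoter windows. Within 50 bp of the RUNX2 summit it lay in 5 of 18 (27.8%, 12.5 to 50.9), at LOC107984326, LINC00398, TJP3, PDIA6 and KIF6, against 23 of 372 (6.18%, 4.15 to 9.11) and, with acetylation in 1 line, 3 of 35 (8.57%, 2.96 to 22.4). For unacetylated distal peaks of KARPAS-45 only, 10 of 60 held it that near (16.7%, 9.31 to 28.0). At LOC107984326, PDIA6 and KIF6 the RUNX core was present as well. At LOC107984326 and PDIA6 the core near the summit and the pattern are largely the same letters, so they are not separate matches. At KIF6 they lay apart. The pattern was chosen on these windows, so the counts describe them and support nothing further, and CTCF binding was not measured.

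Of the sites near genes that are not protein-coding, 5 lay within 1 kb of an end of an immunoglobulin V segment, a choice made after the values were seen. The site 76 bp from an end of IGLV1-40 had a KARPAS-45 fold of 17.6 and a PER-117 fold of 11.5, with H3K27ac 77.8 and 97.8 kb away. The site at IGHV3-7 had 12.6 and 4.05, with H3K27ac of PER-117 137 bp from its midpoint and that of KARPAS-45 79.3 kb away. The sites at IGHV3-72, IGLV6-57 and IGLV3-9 had KARPAS-45 folds of 5.65, 4.22 and 9.61. At IGHV3-72 the midpoint lay 0.092 kb from PER-117 H3K27ac, which overlapped the peak. V segments are near copies of each other, so reads may be shared between them, which was not tested.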
